A study of Mus musculus with 8 samples.

Results

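The SR, hnRNP, CLK, LUC7-like, cyclin L and RBM families of splicing genes were followed in RNA-Seq of whole mouse islets, the pancreatic clusters of endocrine cells that are mostly insulin-producing β cells. Members were all genes whose symbol begins with *Hnrnp* or *Luc7l*, begins with *Srsf* or *Rbm* and a number, or is *Clk1* to *Clk4*, *Ccnl1* or *Ccnl2*, pseudogenes left out, that reached 1 RPKM (reads relative to transcript length and to sequencing depth) in at least 2 of 8 libraries. Of 24123 genes in the matrix 80 matched these symbols and 70 were members: 30 RBM, 20 hnRNP, 11 SR, 4 CLK, 3 LUC7-like and 2 cyclin L genes. The other 10 were RBM symbols (*Rbm11*, *Rbm20*, *Rbm24*, *Rbm31y*, *Rbm3os*, *Rbm4*, *Rbm42*, *Rbm44*, *Rbm46* and *Rbm46os*), none above 1.12 RPKM in any library. *Rbm42* and *Rbm4* share 75.4% and 60.5% of their exonic bases with annotated genes on the same strand. Whether their low values depend on how such reads were counted was not tested.

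Rescue islets (2 libraries, replicates 1 and 2) lacked *Irs2*, which carries signals of the insulin and IGF1 receptors into the cell, in the whole body and carried 2 copies of the *Cdk4*-R24C knock-in allele in all tissues (*Irs2*-/-;*Cdk4*-R24C/R24C). Diabetic islets (3 libraries, replicates 1, 2 and 3) lacked *Irs2* and had wild-type *Cdk4* (*Irs2*-/-;*Cdk4*-WT/WT). Control islets (3 libraries, replicates 1, 3 and 4) were wild type for both genes (*Irs2*+/+;*Cdk4*-WT/WT). The islets came from adult male littermates on chow, were picked by hand and frozen at once, and their polyadenylated RNA was sequenced. Whether a library held 1 mouse or a pool is not given in the sources used here, so each p-value measures only the spread between libraries, which may be technical.

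Splicing removes introns from precursor RNA, and the choice of splice sites is set largely by proteins that bind exons and introns. SR proteins, with arginine and serine repeats, mostly favour the use of nearby sites, hnRNP proteins often oppose it, and CLK kinases control SR proteins by phosphorylating those repeats. Many of these genes also regulate themselves through alternative forms of their own RNA: transcripts with a retained intron that stay in the nucleus, or transcripts with a premature stop that are destroyed by nonsense-mediated decay (NMD).

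Reads in genes, recovered from the steps of the RPKM values, numbered 10290000 to 14316000 per library, and the member with the fewest reads in any library still had 11. *Ins2*, an insulin gene and marker of β cells, stood at 54226 to 106700 RPKM over the 8 libraries. A list of 9 tested nuclear-retained RNAs, none of them a member, set 3 libraries apart: its mean log2(RPKM + 1), centred per gene, was 0.94 and 0.58 in Rescue 1 and 2, 0.88, −1.36 and −1.31 in Diabetic 1, 2 and 3, and 1.07, 0.61 and −1.40 in Control 1, 3 and 4. For 8 of these 9 RNAs, *Malat1* and *Meg3* among them, Diabetic 2, Diabetic 3 and Control 4 were the 3 lowest libraries. What set them apart was not tested, the labels name no batch, and the family medians and counts of calls are given with and without them.

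hnRNP genes were the most abundant family, with a mean over the 8 libraries that ran from 3.56 RPKM (*Hnrnpll*) to 101 RPKM (*Hnrnpa1*) and a median of 37.5 RPKM. SR genes had a median of 26.2 RPKM, from 1.05 (*Srsf12*) to 63.3 (*Srsf5*). The LUC7-like genes lay at 11.1 to 18.3 RPKM, the cyclins L at 7.62 and 17.4, and the CLK genes at 6.01 (*Clk3*) to 12.1 (*Clk1*). RBM genes had a median of 7.04 RPKM, from 0.850 (*Rbm41*, the lowest member) to 41.7 (*Rbm39*). Just outside the limit, *Rbm24* reached 1.12 RPKM in 1 library only.

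**Figure D1:**
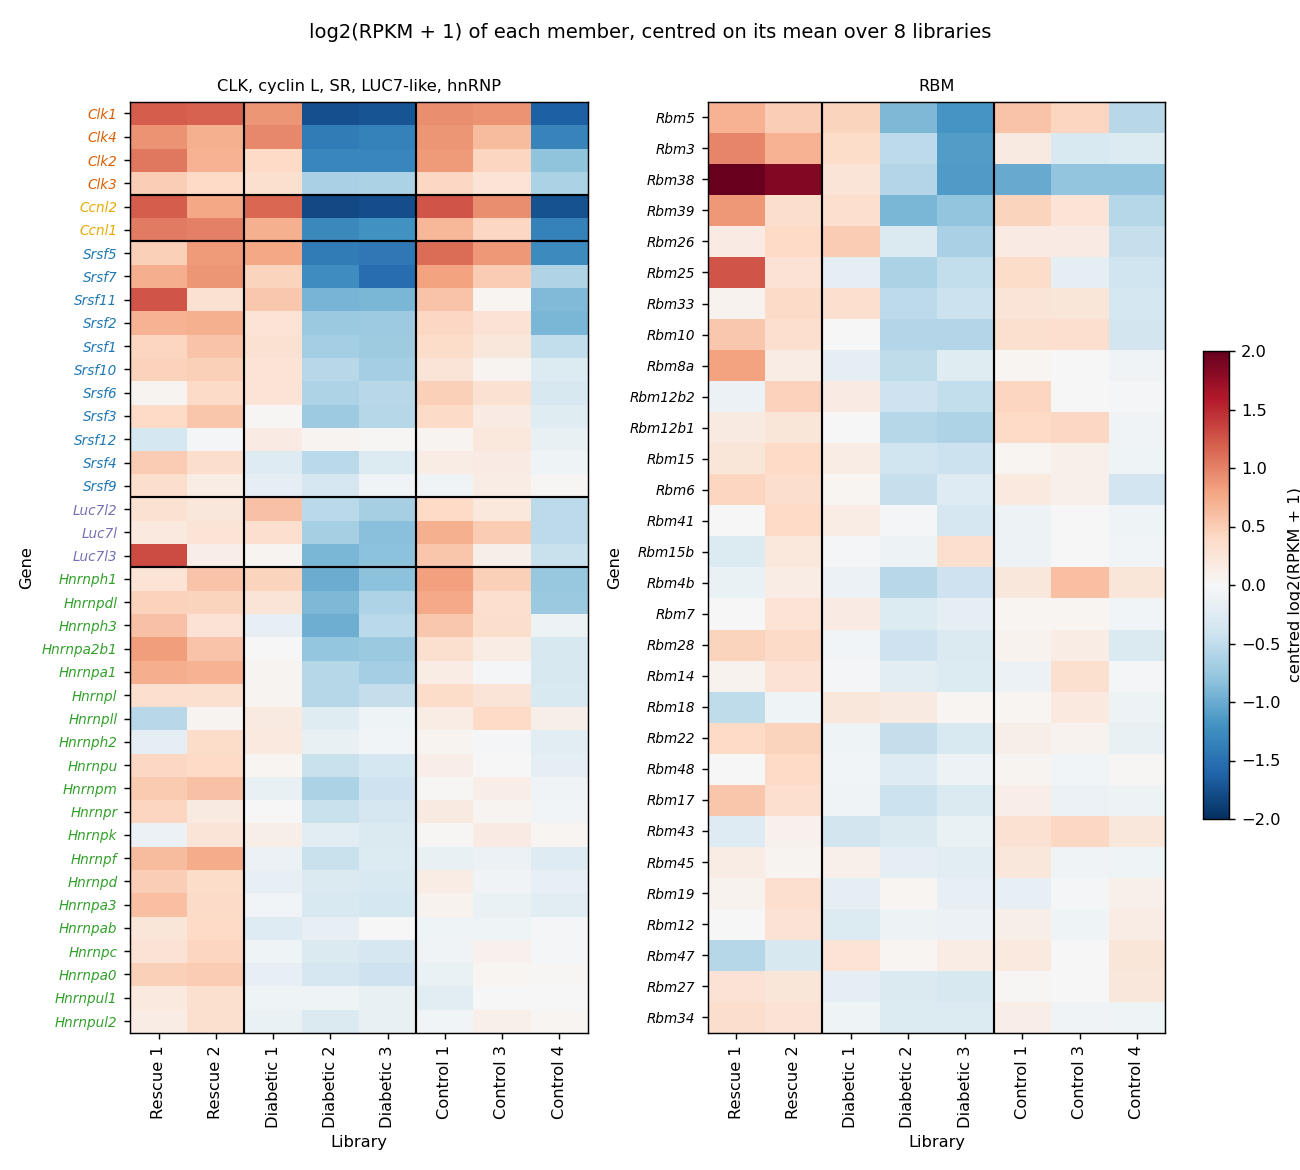
Heat map of the 70 members (rows, by family and then by falling range within a genotype) in the 8 libraries (columns). Colour is log2(RPKM + 1) minus the mean of the gene over the libraries, with values beyond 2 in either direction at the end colour. The CLK, cyclin L and LUC7-like rows and most SR rows are blue in Diabetic 2, Diabetic 3 and Control 4, and 31 members in all are higher in both Rescue libraries than in the other 6.

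The CLK kinases and the cyclins L were low in the same 3 libraries that stood low in nuclear-retained RNAs, which belong to 2 genotypes. *Clk1* was 20.8 and 20.5 RPKM in Rescue, 16.4, 1.79 and 1.84 RPKM in Diabetic and 17.1, 16.6 and 2.06 RPKM in Control. Diabetic 1 was thus near the Rescue libraries and Control 1 and 3, while Diabetic 2, Diabetic 3 and Control 4 lay far below them. *Ccnl2*, a cyclin of nuclear speckles that pairs with CDK11, was 28.9 and 21.1 RPKM in Rescue, 27.7, 2.68 and 2.79 RPKM in Diabetic and 29.7, 23.5 and 2.86 RPKM in Control. Its range within a genotype, 2.99 on the log2 scale, was the widest of the 70 members, and the highest library was 10.3 times the lowest in Diabetic and 10.4 times in Control. *Clk4* was 13.6 and 11.7 RPKM in Rescue, 14.2, 1.94 and 2.04 RPKM in Diabetic and 13.4, 11.1 and 2.08 RPKM in Control, and *Ccnl1* was 13.3 and 13.1 RPKM in Rescue, 10.504, 1.88 and 2.03 RPKM in Diabetic and 10.1, 8.31 and 1.75 RPKM in Control. The other 2 kinases had the same low libraries with smaller gaps. *Clk2* was 13.2 and 10.1 RPKM in Rescue, 8.10, 1.77 and 1.78 RPKM in Diabetic and 11.4, 8.27 and 2.92 RPKM in Control. *Clk3* was 8.37 and 7.78 RPKM in Rescue, 7.26, 3.21 and 3.28 RPKM in Diabetic and 7.86, 7.03 and 3.28 RPKM in Control. With all 8 libraries none of the 6 was called in any comparison of genotypes. Between Rescue and Diabetic *Clk1* had the largest log2 difference of them, 2.07 (SE 0.95, limma adjusted p = 0.128), and *Clk2* the lowest adjusted p, 0.0750 (limma). With 1 library left out, their lowest adjusted p in that comparison ran from 0.0115 (*Clk2*) to 0.0387 (*Ccnl2*, limma). Calls of these genes thus turned on single libraries. In the 5 libraries left without the 3 low ones, the median log2 difference was 0.23 for the 4 CLK genes and 0.07 for the cyclins L between Rescue and Diabetic 1, against 1.51 and 1.71 with all libraries. In whole islets, fewer cells of a type and less RNA per cell cannot be told apart.

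**Figure D2:**
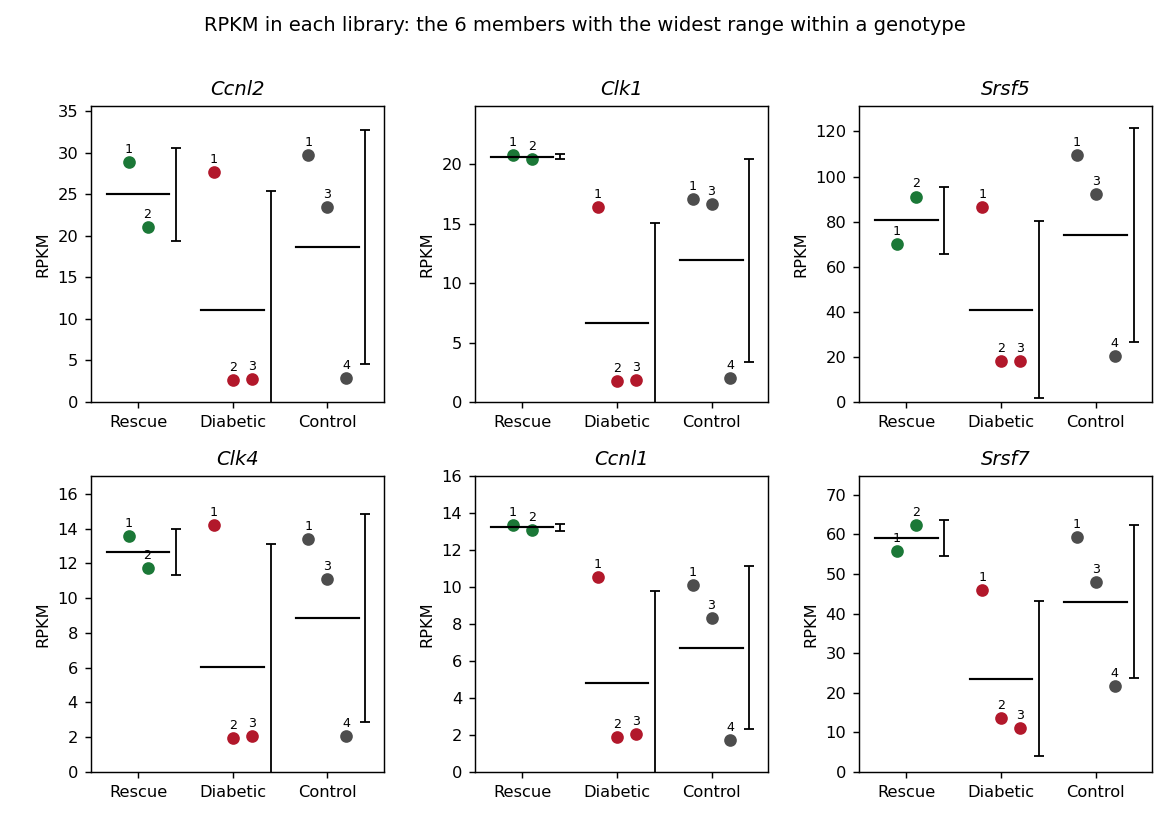
RPKM (linear axis from 0) of the 6 members with the widest range within a genotype, by genotype. Each point is a library with its replicate number, the line is the mean of the genotype and the bar beside it the SD, cut at 0 where it would pass below. Diabetic 2, Diabetic 3 and Control 4 are the 3 lowest points in all 6 panels, and *Ccnl2* is between 2.68 and 2.86 RPKM in them.

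The start regions are shown for 5 of these 6 genes, which were chosen for the widest range within a genotype. *Clk1* had no entry. Each sequence is 300 bases of RefSeq on GRCm38.p6, 5′ to 3′ on the strand of the gene, 250 before and 50 from the annotated start. Capitals mark TGACGTCA, the palindrome of the cAMP response element, and GGGCGG or its complement CCGCCC, the GC box.
Ccnl2: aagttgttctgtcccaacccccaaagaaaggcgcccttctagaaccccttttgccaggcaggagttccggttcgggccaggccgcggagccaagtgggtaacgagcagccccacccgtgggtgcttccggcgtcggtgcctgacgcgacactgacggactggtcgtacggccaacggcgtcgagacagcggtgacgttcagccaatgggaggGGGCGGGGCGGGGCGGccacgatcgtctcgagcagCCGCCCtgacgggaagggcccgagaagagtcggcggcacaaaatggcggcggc
Ccnl1: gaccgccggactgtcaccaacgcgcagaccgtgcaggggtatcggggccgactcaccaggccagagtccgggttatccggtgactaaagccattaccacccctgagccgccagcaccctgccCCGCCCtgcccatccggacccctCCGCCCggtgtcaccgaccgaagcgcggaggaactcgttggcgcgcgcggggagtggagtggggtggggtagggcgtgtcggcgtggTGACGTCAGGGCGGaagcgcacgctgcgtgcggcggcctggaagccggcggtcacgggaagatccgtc
Clk4: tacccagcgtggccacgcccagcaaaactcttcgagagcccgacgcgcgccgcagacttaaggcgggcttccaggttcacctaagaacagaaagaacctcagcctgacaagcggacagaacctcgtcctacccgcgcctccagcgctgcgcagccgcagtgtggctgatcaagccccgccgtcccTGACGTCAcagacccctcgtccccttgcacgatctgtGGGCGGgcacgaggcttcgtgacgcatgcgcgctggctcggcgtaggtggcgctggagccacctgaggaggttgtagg
Srsf5: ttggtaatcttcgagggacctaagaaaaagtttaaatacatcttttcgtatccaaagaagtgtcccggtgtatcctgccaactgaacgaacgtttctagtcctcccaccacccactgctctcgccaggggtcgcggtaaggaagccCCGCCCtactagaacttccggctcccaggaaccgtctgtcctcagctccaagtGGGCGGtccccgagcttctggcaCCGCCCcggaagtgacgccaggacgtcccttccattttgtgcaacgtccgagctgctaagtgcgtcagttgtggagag
Srsf7: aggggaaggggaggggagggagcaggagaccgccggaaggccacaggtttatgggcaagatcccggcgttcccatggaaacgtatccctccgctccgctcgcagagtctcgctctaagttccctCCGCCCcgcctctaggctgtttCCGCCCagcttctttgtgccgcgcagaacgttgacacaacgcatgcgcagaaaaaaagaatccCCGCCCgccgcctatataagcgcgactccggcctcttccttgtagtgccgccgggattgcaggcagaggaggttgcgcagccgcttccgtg
The windows lie at chr4:155812239-155812538 on the plus strand (*Ccnl2*), chr3:65958200-65958499 on the minus strand (*Ccnl1*), chr11:51262864-51263163 on the plus strand (*Clk4*), chr12:80945249-80945548 on the plus strand (*Srsf5*) and chr17:80207256-80207555 on the minus strand (*Srsf7*). TGACGTCA, read on both strands, stood 18 bases before the start in *Ccnl1* and 65 bases before it in *Clk4*, and the *Ccnl1* copy ran straight into a GC box. These were the only 2 matches in 76 windows of the 60 members that have an entry (2.63%), against 588 of 32851 windows of all genes (1.79%). A GC box stood in all 5 windows shown, in 68.42% of the windows of members and in 35.66% of all windows. Other motifs counted were the CCAAT box (44.74% of the windows of members, 37.41% of all windows), E box (11.84%, 7.15%), ETS site (9.21%, 3.89%) and TATA box (9.21%, 13.62%). Members had to reach 1 RPKM and the genes of all windows did not, so these shares are not of like genes. A match describes the letters and is no evidence of binding.

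SR proteins followed the same 3 libraries to differing degrees. *Srsf5* was 69.99 and 91.1 RPKM in Rescue, 86.4, 18.4 and 18.04 RPKM in Diabetic and 109.6, 92.3 and 20.2 RPKM in Control. *Srsf7*, which with *Srsf3* also links spliced RNA to nuclear export, was 55.9 and 62.4 RPKM in Rescue, 46.0, 13.6 and 10.98 RPKM in Diabetic and 59.4, 47.9 and 21.8 RPKM in Control. Both had ranges within a genotype (2.38 and 1.97 on the log2 scale) above their largest difference between genotype means (1.34 and 1.57). *Srsf2*, the speckle protein SC35, was 58.0 and 58.7 RPKM in Rescue, 43.3, 20.8 and 21.1 RPKM in Diabetic and 47.6, 43.7 and 18.5 RPKM in Control. *Srsf11* was 37.5 and 18.8 RPKM in Rescue, 22.3, 7.44 and 7.53 RPKM in Diabetic and 22.9, 15.5 and 7.75 RPKM in Control, and here the Rescue libraries themselves lay apart. *Srsf1*, the first SR protein to be described, *Srsf6* and *Srsf10* had the same 3 lowest libraries with ranges of 1.01, 0.90 and 0.95. None of these 7 was called. Without the 3 low libraries, the log2 difference of *Srsf5* between Rescue and Diabetic 1 was −0.11, against 1.34 with all libraries, and the median of the 11 SR genes was 0.25, against 0.87.

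The SR genes that were called between genotypes were 3 of the less variable ones, and all 3 rose in Rescue against Diabetic. *Srsf4* was 20.6 and 18.5 RPKM in Rescue, 11.8, 9.45 and 11.6 RPKM in Diabetic and 15.9, 16.0 and 13.3 RPKM in Control, so that Rescue was above and Diabetic below every other library. By limma, its difference of 0.79 on the log2 scale from Diabetic (SE 0.15) had an adjusted p of 0.00745, and it was called whichever library was left out, but 43.0% of its exonic bases overlap a gene on the opposite strand. *Srsf3* averaged 35.3 ± 2.79 RPKM in Rescue (SD, n = 2) and 18.8 ± 5.81 RPKM in Diabetic (n = 3), a log2 difference of 0.91 (SE 0.26, limma adjusted p = 0.0304). *Srsf9* averaged 31.1 ± 3.13 RPKM in Rescue (n = 2) and 22.5 ± 2.16 RPKM in Diabetic (n = 3), a difference of 0.45 (SE 0.14, limma adjusted p = 0.0439). The call of *Srsf3* was lost without Rescue 1, Rescue 2, Diabetic 2, Diabetic 3 or Control 3 (limma adjusted p up to 0.104), and that of *Srsf9* without any library but Rescue 2 (up to 0.172). *Srsf12*, the least abundant, lay between 0.604 and 1.37 RPKM in all libraries and was not called.

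The LUC7-like genes, relatives of a yeast protein of the U1 particle that recognises the 5′ splice site, had the 3 low libraries as well and no call. *Luc7l* was 11.8 and 12.7 RPKM in Rescue, 13.2, 6.07 and 5.32 RPKM in Diabetic and 17.5, 15.0 and 6.83 RPKM in Control. *Luc7l2* was 19.4 and 18.4 RPKM in Rescue, 23.8, 10.4 and 9.42 RPKM in Diabetic and 20.9, 18.1 and 10.52 RPKM in Control, and only 15.9% of its sum of squares lay between genotypes. *Luc7l3* set Rescue 1 (41.3 RPKM) apart from Rescue 2 (17.9 RPKM), beside 16.9, 8.14 and 8.70 RPKM in Diabetic and 24.3, 17.7 and 11.7 RPKM in Control. The family median of the log2 difference Rescue minus Diabetic was 0.62 with all libraries and −0.10 without the 3 low ones.

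Of the 20 hnRNP genes, 13 had both Rescue libraries above all 6 others (28.4% of all genes did), and 9 had the 3 low libraries lowest (18.0% of all genes). In Rescue, 13 were called higher against Diabetic (24.0% of all genes) and 6 against Control (18.0% of all genes). These 6 were called against both genotypes, for which the share of all genes is not given here. *Hnrnpf*, which binds runs of G, was 56.0 and 60.7 RPKM in Rescue, 33.1, 25.9 and 29.3 RPKM in Diabetic and 32.3, 32.8 and 29.6 RPKM in Control. The Diabetic and Control libraries overlapped and both Rescue libraries were above all 6. It rose by 0.97 on the log2 scale against Diabetic (SE 0.14, limma adjusted p = 0.00242) and by 0.87 against Control (SE 0.14, 0.00263), whichever library was left out, and the share of its sum of squares between genotypes, 94.4%, was the largest of all members. Its exonic bases overlap genes of the opposite strand over 26.5%. *Hnrnpa1*, the most abundant member and a repressor of splice sites, was 157 and 154 RPKM in Rescue, 98.2, 63.4 and 59.1 RPKM in Diabetic and 105, 92.0 and 76.1 RPKM in Control, with a log2 difference of 1.10 from Diabetic and 0.77 from Control (limma adjusted p = 0.00958 and 0.0421). It has processed pseudogenes, and how reads they share were counted is not given in the sources used here. *Hnrnpa0* was 55.0 and 55.8 RPKM in Rescue, 34.8, 30.7 and 29.3 RPKM in Diabetic and 35.6, 40.4 and 39.6 RPKM in Control. *Hnrnpm* was 46.2 and 48.3 RPKM in Rescue, 28.4, 20.1 and 23.4 RPKM in Diabetic and 32.2, 34.8 and 30.3 RPKM in Control. In both genes all 3 Diabetic libraries lay below all 3 Control libraries, by a log2 difference of −0.28 and −0.43 that was not called (limma adjusted p = 0.198 and 0.126), and both rose in Rescue against either genotype. Against Control, the calls of *Hnrnpa0* and *Hnrnpm* were lost without Rescue 1 or any 1 Control library, that of *Hnrnpm* also without Rescue 2 or Diabetic 3, and that of *Hnrnpa1* without Rescue 1, Rescue 2, Diabetic 2, Control 3 or Control 4. Against Diabetic, that of *Hnrnpa1* was lost without Rescue 1 (limma adjusted p = 0.0616).

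*Hnrnpa3* and *Hnrnpd*, *Hnrnpd* known as AUF1 for its part in the decay of AU-rich RNAs, also rose in Rescue against both. *Hnrnpa3* averaged 112 ± 11.5 RPKM in Rescue (SD, n = 2), 67.3 ± 8.03 RPKM in Diabetic (n = 3) and 74.3 ± 7.47 RPKM in Control (n = 3), and *Hnrnpd* averaged 26.2 ± 1.72 RPKM in Rescue, 15.9 ± 0.886 RPKM in Diabetic and 18.8 ± 2.20 RPKM in Control. Their calls against Control were lost without Rescue 1, Control 3 or Control 4, that of *Hnrnpd* also without any 1 Diabetic library, and that of *Hnrnpa3* against Diabetic without Rescue 1 (limma adjusted p = 0.0588). Another 7 hnRNP genes rose in Rescue against Diabetic alone: *Hnrnpa2b1* (log2 difference 1.21), *Hnrnph3* (0.997), *Hnrnpu* (0.66), *Hnrnpc* (0.60), *Hnrnpr* (0.57), *Hnrnpab* (0.46) and *Hnrnpul2* (0.42). Of these 7 calls each was lost without at least 1 library, *Hnrnpc* only without Diabetic 2 (limma adjusted p = 0.0512) and *Hnrnpa2b1* only without Rescue 1 (0.0954). *Hnrnpa2b1*, a close relative of *Hnrnpa1*, was 151 and 126 RPKM in Rescue, 83.7, 49.0 and 50.04 RPKM in Diabetic and 106, 93.7 and 67.3 RPKM in Control, so that its 3 lowest libraries were the same ones and both Rescue libraries were the highest. *Hnrnph1* and *Hnrnpdl* went with the CLK genes instead. *Hnrnph1* was 44.5 and 54.9 RPKM in Rescue, 50.1, 18.01 and 20.3 RPKM in Diabetic and 65.1, 51.2 and 21.2 RPKM in Control, and *Hnrnpdl* had the same 3 lowest libraries at 13.9 to 17.1 RPKM beside 32.2 to 46.1 in the other 5. *Hnrnpk*, which binds C-rich stretches, moved least among the abundant members: 58.0 and 75.9 RPKM in Rescue, 68.8, 54.8 and 51.7 RPKM in Diabetic and 64.7, 70.7 and 65.4 RPKM in Control. *Hnrnph2*, a close copy of *Hnrnph1* in protein sequence, did not share its split: 14.8 and 22.2 RPKM in Rescue, 19.4, 15.3 and 16.4 RPKM in Diabetic and 17.6, 16.6 and 14.5 RPKM in Control. *Hnrnpll*, known for its role in the splicing of CD45 in lymphocytes, was 2.04 and 3.67 RPKM in Rescue, 4.05, 2.78 and 3.24 RPKM in Diabetic and 3.96, 4.88 and 3.85 RPKM in Control, and was not called.

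RBM proteins share an RNA-binding domain and little else, and their genes moved to differing degrees. Of 30, 27 had a log2 difference above 0 in Rescue minus Diabetic (67.4% of all genes), with a median of 0.48, beside 0.24 for all genes. In that comparison 10 were called higher and 1 lower (24.0% and 5.8% of all genes). *Rbm38*, a p53 target that stabilises or represses chosen mRNAs, was 11.98 and 9.33 RPKM in Rescue, 2.42, 0.907 and 0.299 RPKM in Diabetic and 0.415, 0.656 and 0.661 RPKM in Control. Both Rescue libraries stood far above the rest, and Diabetic 1 stood above the remaining 5. By limma, it rose by 2.51 on the log2 scale against Diabetic (SE 0.35, adjusted p = 0.00226) and by 2.88 against Control (SE 0.35, adjusted p = 0.000803), the largest differences of any member, and both calls held whichever library was left out. It reached 1 RPKM only in Rescue 1, Rescue 2 and Diabetic 1, so it passed the filter for members through the Rescue libraries. The remaining 5 libraries held 11 to 28 of its reads each. *Rbm47*, a partner of APOBEC1 in RNA editing that epithelial cells express, was the only member called lower in Rescue: it was 5.40 and 6.56 RPKM in Rescue, 10.4, 8.77 and 9.46 RPKM in Diabetic and 9.88, 8.47 and 10.3 RPKM in Control, with a log2 difference of −0.60 (SE 0.15) against each (limma adjusted p = 0.0218 and 0.0243). Neither call was made without Rescue 1 (0.111 and 0.131), and that against Control was also lost without Control 1 or Control 4. Among the others *Rbm3*, a cold-induced protein, was 30.3 and 24.9 RPKM in Rescue, 19.6, 10.1 and 6.39 RPKM in Diabetic and 17.0, 11.9 and 12.2 RPKM in Control, and rose against Diabetic (log2 difference 1.26, SE 0.38, limma adjusted p = 0.0363). *Rbm25* rose by 1.21 (SE 0.32, limma adjusted p = 0.0236), but its Rescue libraries differed, at 25.8 and 12.6 RPKM, beside 8.72, 6.21 and 6.95 RPKM in Diabetic and 13.4, 8.83 and 7.45 RPKM in Control. Neither *Rbm3* nor *Rbm25* was called without Rescue 1, Diabetic 2 or Diabetic 3, and *Rbm3* was also not called without Rescue 2 or Control 3 (limma adjusted p up to 0.186).

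Another 7 RBM genes rose in Rescue against Diabetic, each with a call that was lost without Rescue 1. They were *Rbm10* (log2 difference 0.82), *Rbm8a*, the Y14 protein of the exon junction complex (0.78), *Rbm22*, which lies at the catalytic centre of the spliceosome (0.72), *Rbm17* (0.71), *Rbm28* (0.67), *Rbm34* (0.53) and *Rbm27* (0.53). *Rbm17*, which recognises the 3′ splice site, was 37.8 and 32.4 RPKM in Rescue, 24.2, 18.6 and 20.5 RPKM in Diabetic and 28.0, 23.4 and 23.6 RPKM in Control. *Rbm27* was 11.2 and 10.8 RPKM in Rescue, 7.78, 7.17 and 6.98 RPKM in Diabetic and 9.16, 8.93 and 10.7 RPKM in Control, with no overlap between any 2 genotypes. *Rbm5*, a tumour suppressor that regulates splicing, and *Rbm39*, a relative of the splicing factor U2AF, had the split of the CLK genes. *Rbm5* was 11.4 and 9.78 RPKM in Rescue, 9.43, 3.096 and 2.38 RPKM in Diabetic and 10.3, 9.28 and 4.20 RPKM in Control, and *Rbm39* was 70.4 and 48.9 RPKM in Rescue, 48.7, 19.7 and 21.7 RPKM in Diabetic and 52.3, 46.5 and 25.4 RPKM in Control.

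The smallest share of the sum of squares between genotypes was that of *Rbm15b*, a subunit of the complex that writes m6A on RNA, with 8.07 and 11.7 RPKM in Rescue, 9.67, 9.27 and 12.9 RPKM in Diabetic and 9.27, 9.98 and 9.61 RPKM in Control. Only 8.60% of its sum of squares lay between genotypes, and the 3 genotypes overlapped. Among the RBM genes, *Rbm26*, *Rbm33*, *Rbm45* and *Rbm41* had the next shares, of 18.2%, 24.7%, 28.4% and 31.4%. *Rbm26* was not flat, with a range within a genotype of 1.17 and the same 3 lowest libraries as the CLK genes. Another 12 members, *Rbm6*, *Rbm7*, *Rbm12*, *Rbm12b1*, *Rbm12b2*, *Rbm14*, *Rbm15*, *Rbm18*, *Rbm19*, *Rbm48*, *Hnrnpl* and *Hnrnpul1*, were called in no comparison, with log2 differences Rescue minus Diabetic between −0.44 (*Rbm18*) and 0.65 (*Hnrnpl*). Of the 20 members called by the F-test over the 3 genotypes (31.1% of all genes), *Rbm43* and *Rbm4b* were highest in Control: *Rbm43* averaged 11.01 ± 1.995 RPKM in Rescue (n = 2), 9.64 ± 0.905 RPKM in Diabetic (n = 3) and 14.8 ± 1.06 RPKM in Control (n = 3; F-test of limma, adjusted p = 0.0341), and *Rbm4b* was 2.81 and 3.59 RPKM in Rescue, 2.83, 1.82 and 2.12 RPKM in Diabetic and 3.84, 5.33 and 3.91 RPKM in Control (F-test of limma, adjusted p = 0.0410). All 3 Diabetic libraries were below all 3 Control libraries in both, and 30.8% of the exonic bases of *Rbm4b* overlap another gene.

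The spread of each member within a genotype was set against that between genotypes. For 35 of the 70 members the largest range within a genotype exceeded the largest difference between genotype means on the log2(RPKM + 1) scale, which is the share found over all 12594 tested genes (50.2%). Without Diabetic 1 the count was 20. The families differed in which side they fell on: 4 of 4 CLK genes, 2 of 2 cyclins L, 8 of 11 SR and 2 of 3 LUC7-like genes had the wider spread within a genotype, against 13 of 30 RBM and 6 of 20 hnRNP genes. The median of the largest range within a genotype was 2.50 for the cyclins L, 2.04 for the CLK genes, 1.24 for the LUC7-like genes, 0.95 for SR, 0.47 for RBM and 0.46 for hnRNP genes, beside 0.54 for all genes. The median share of the sum of squares that lay between genotypes was 32.5% for the cyclins L, 36.5% for CLK, 30.2% for LUC7-like, 45.6% for SR, 59.9% for RBM and 76.1% for hnRNP genes, beside 62.4% for all genes. These medians describe the families and were not tested.

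**Figure D3:**
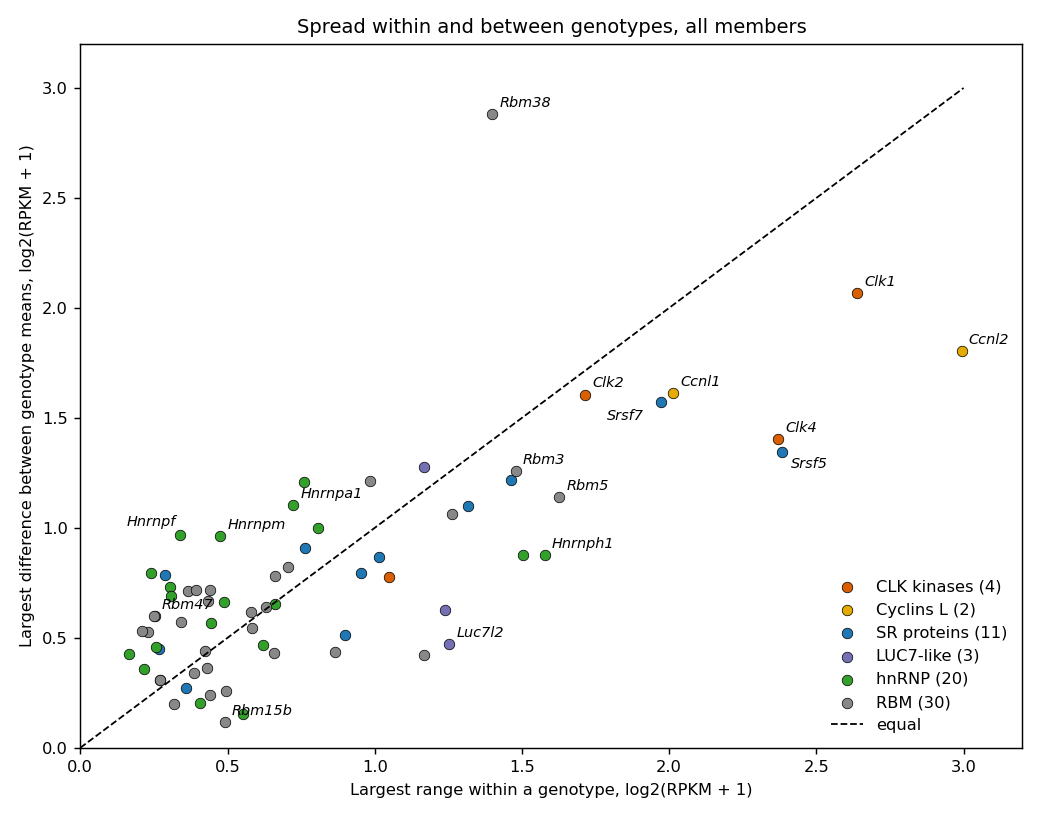
The largest range within a genotype (x axis, log2 of RPKM + 1) against the largest difference between 2 genotype means (y axis, same scale) for the 70 members, coloured by family with the number of genes in brackets. Points below the dashed line, 35 of 70, have the wider spread within a genotype: *Ccnl2* lies farthest right at 2.99, and *Rbm38* is highest at 2.88.

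Most of the wide spread lay in the 3 libraries. Diabetic 2, Diabetic 3 and Control 4 were the 3 lowest libraries for 40 of 70 members, against 18.0% of all genes, and for 9 members, against 1.09% of all genes, a gap of at least 1 on the log2 scale parted them from the other 5. These 9 were *Ccnl2* (gap 2.51), *Clk1* (2.51), *Clk4* (1.97), *Srsf5* (1.74), *Ccnl1* (1.62), *Clk2* (1.22), *Srsf7* (1.05), *Hnrnph1* (1.04) and *Srsf2* (1.01). A range within a genotype of at least 1 was found for 21 of 70 members, against 14.0% of all genes, and 19 of these 21 had the 3 lowest libraries in question. By family, the 3 were lowest for all 9 CLK, cyclin L and LUC7-like genes, 8 of 11 SR, 9 of 20 hnRNP and 14 of 30 RBM genes. Neither Rescue library was among the 3, and the median range within Rescue, which has only 2 libraries, was 0.21 for the members and 0.29 for all genes. The centred mean of the 6 CLK and cyclin L genes was 0.99 and 0.79 in Rescue, 0.74, −1.37 and −1.33 in Diabetic and 0.84, 0.60 and −1.25 in Control, with the same 3 libraries below 0 as in the nuclear-retained list. The summed level of 10 acinar genes was 188 and 40.6 RPKM in Rescue, 333, 451 and 54.7 RPKM in Diabetic and 153, 123 and 131 RPKM in Control, and its part was not tested.

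Members with annotated transcripts of the self-regulating kinds were among those with the wide spread. Of 70 members 37 (52.9%) have both an NMD transcript and a retained-intron transcript in GENCODE M21, against 2753 of 12138 tested protein-coding genes (22.7%). The median of the largest range within a genotype was 1.02 for these 37 members, with 19 at 1 or more. It was 0.34 for the 16 members with 1 of the kinds and 0.49 for the 17 with neither, of which 0 and 2 reached 1. Over all protein-coding genes the medians were 0.54, 0.52 and 0.56 in the same order, so no such step was seen there. Gene-level values add up all transcripts and do not show which form was present.

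The 3 comparisons of genotypes share libraries and are not independent of each other. Rescue and Diabetic islets share the loss of *Irs2* and differ in the *Cdk4* allele. Per the paper, blood glucose was raised in Diabetic males and at control levels in Rescue males, so allele and blood glucose cannot be told apart. Here 26 of 70 members rose and 1 (*Rbm47*) fell in Rescue, against 24.0% of all genes higher, 5.8% lower and 29.8% in either direction (adjusted p under 0.05 over all 12594 genes, limma). Both Rescue libraries were above all 3 Diabetic libraries for 47 members, against 42.0% of all genes, and 65 members had a log2 difference above 0, against 67.4%. By family, 13 of 20 hnRNP, 3 of 11 SR and 10 of 30 RBM genes rose, and 0 of 4 CLK, 0 of 2 cyclin L and 0 of 3 LUC7-like genes. The median log2 difference was 0.67 for the members and 0.24 for all genes. The 6 CLK and cyclin L genes had a median of 1.61 with standard errors up to 1.06 and no call. The count of 26 moved with single libraries: 9 members were called higher without Rescue 1, 10 without Diabetic 2, 14 without Diabetic 3 and 43 without Diabetic 1. Without Diabetic 1 the median log2 difference was 0.81 for the members and 0.31 for all genes. The shares of all genes called in these refits are not given here. *Rbm38*, *Hnrnpf*, *Hnrnpm*, *Hnrnpa0*, *Hnrnpd* and *Srsf4* were called whichever library was left out. In the 5 libraries left without Diabetic 2, Diabetic 3 and Control 4, where Diabetic 1 stands alone and is assumed to vary like the others, 1 member (*Rbm38*, log2 difference 1.76, limma adjusted p = 0.0159) was called higher, and the median difference was 0.31 for the members (0.41 for hnRNP and 0.26 for RBM genes, against 0.68 and 0.48 with all libraries) and 0.09 for all genes. With quantile normalization 18 members were higher and 4 lower.

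**Figure D4:**
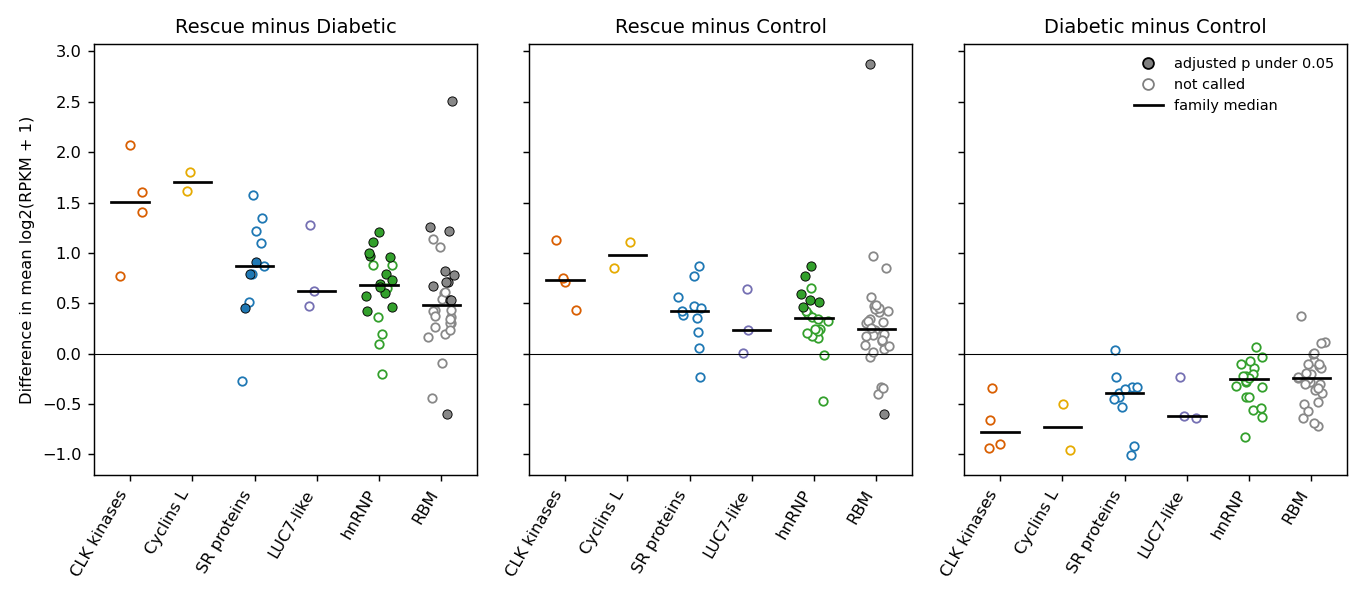
Difference in mean log2(RPKM + 1) of each member between 2 genotypes, by family: Rescue minus Diabetic, Rescue minus Control and Diabetic minus Control. Filled points have an adjusted p under 0.05 (limma, over all tested genes), open points do not, and the line is the median of the family. The filled points, 27, 8 and 0 in the 3 panels, lie among the hnRNP, RBM and SR genes only, while the CLK and cyclin L medians are the farthest from 0 in each panel.

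Rescue against Control asks which levels in islets with both changed genes lay apart from the wild type. Here 7 of 70 members were called higher and 1 lower, against 18.0% and 5.48% of all genes (23.5% in either direction, limma). The 7 were *Rbm38*, *Hnrnpf*, *Hnrnpa1*, *Hnrnpa3*, *Hnrnpm*, *Hnrnpa0* and *Hnrnpd*, and the 1 lower was *Rbm47*. All 8 were also called in the same direction against Diabetic, but the 2 comparisons share the Rescue libraries. The median log2 difference was 0.35 for the members and 0.08 for all genes, and 62 members had one above 0, against 56.1% of all genes. Both Rescue libraries were above all 6 others for 31 of 70 members, against 28.4% of all genes, and below them for *Rbm47*, against 7.41%. Without Rescue 1, Control 3 or Control 4 the count of higher members was 2, and in the 5 libraries without the 3 low ones it was also 2, *Rbm38* and *Hnrnpf*. Quantile normalization gave 5 higher and 6 lower members.

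**Figure D5:**
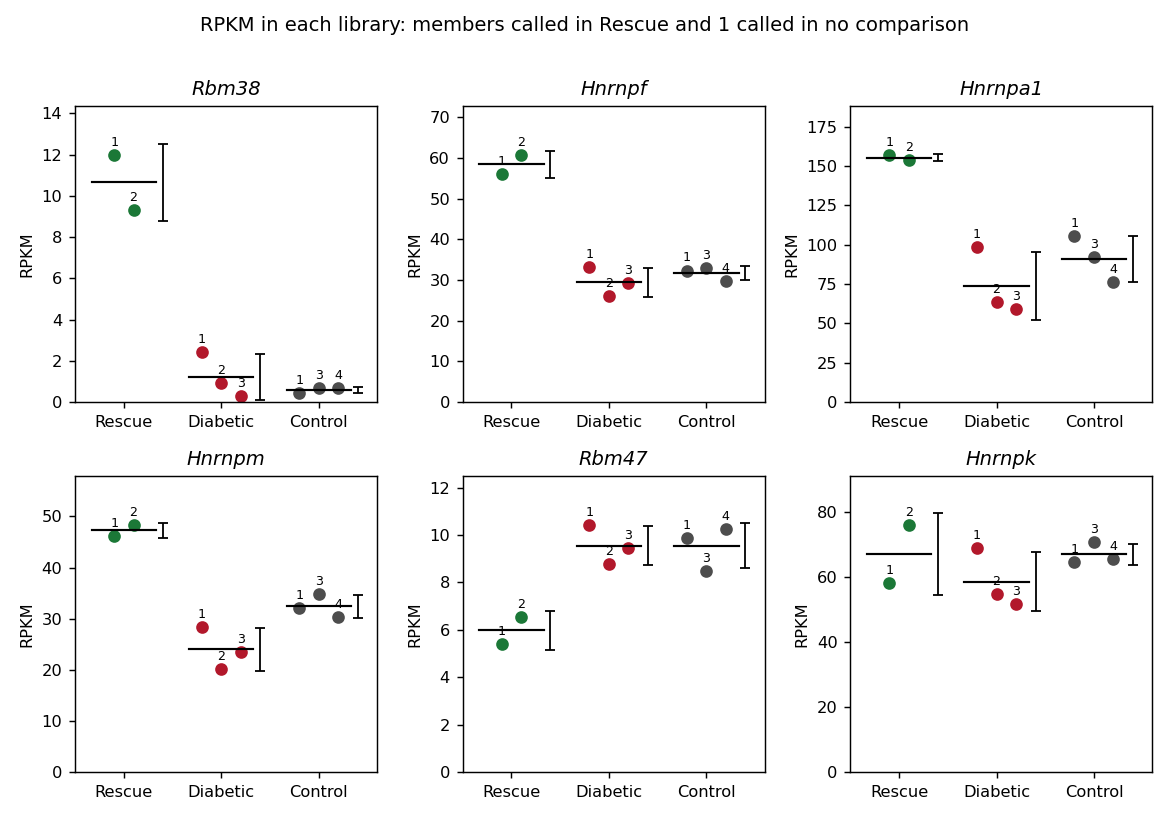
RPKM (linear axis from 0) of 4 members called higher in Rescue against both other genotypes, of *Rbm47*, called lower against both, and of *Hnrnpk*, called in no comparison. Points are libraries with their replicate number, the line is the mean and the bar the SD of the genotype. *Hnrnpf* is at 56.0 and 60.7 RPKM in Rescue and at most 33.1 RPKM in the other 6 libraries.

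Markers of other cell types moved with Rescue too. The summed level of 8 lymphocyte genes, all tested, was 370 and 273 RPKM in Rescue, 112, 36.2 and 6.33 RPKM in Diabetic and 5.61, 24.7 and 5.39 RPKM in Control, with *Cd3e* listed at 0 in Diabetic 3. For 6 tested macrophage genes of 8 it was 601 and 516 RPKM in Rescue, 162, 223 and 79.6 RPKM in Diabetic and 45.4, 60.6 and 87.5 RPKM in Control, and for 8 fibroblast genes 108 and 120 RPKM in Rescue, 35.3, 33.2 and 24.7 RPKM in Diabetic and 9.93, 8.93 and 25.5 RPKM in Control. *Rbm38* had the same order as the lymphocyte list in its 3 highest libraries, Rescue 1, Rescue 2 and Diabetic 1. Endothelial genes summed to 288 and 256 RPKM in Rescue, 159, 223 and 213 RPKM in Diabetic and 149, 123 and 168 RPKM in Control, with 4 of 8 called higher against Control (18.0% of all genes). Other lists were lower in Rescue. The 3 tested ductal genes of 7 summed to 35.9 and 34.02 RPKM in Rescue, 73.8, 68.3 and 54.3 RPKM in Diabetic and 54.9, 51.2 and 45.4 RPKM in Control, with 2 called lower against Diabetic (5.8% of all genes). The 3 δ and PP cell genes summed to 778 and 695 RPKM in Rescue, 2719, 1533 and 2134 RPKM in Diabetic and 7486, 8214 and 7205 RPKM in Control, with 2 called lower against Control (5.48% of all genes). Of 10 β cell genes, 0 had a log2 difference above 0 in Rescue minus Control (56.1% of all genes), and 3 were called lower (5.48%). Against Diabetic, 7 of the 10 had one above 0 (67.4% of all genes) and 1 was called lower (5.8%). Of 5 α cell genes, 0 were above 0 against Diabetic (67.4% of all genes) and 1 against Control (56.1%). In each comparison 1 was called lower, against 5.8% and 5.48% of all genes. The part of these cells in the members' Rescue levels was not tested.

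Diabetic and Control islets differ in *Irs2*, with wild-type *Cdk4* in both. Per the paper, males of the Diabetic genotype also had raised blood glucose, so the loss of *Irs2* and blood glucose cannot be told apart here. No member was called, 0 higher and 0 lower of 70, against 1.53% and 2.44% of all genes (3.97% in either direction, limma). At an unadjusted p under 0.05 there were 10 members, all lower in Diabetic, against 23.3% of all genes in either direction, and voom on the recovered reads called 0 in each direction. The members lay on the low side: 6 of 70 had a log2 difference above 0, against 35.8% of all genes, and the median was −0.30, beside −0.12 for all genes. All 3 Diabetic libraries were below all 3 Control libraries for 14 members, against 21.5% of all genes, and above them for 0, against 10.2%. By limma, the lowest adjusted p were 0.0604 for *Rbm43* (log2 difference −0.57) and 0.0641 for *Rbm4b* (−0.72). The count of lower members was 1 at a mean RPKM of at least 5, with median-of-ratios scaling, in a fit of the 2 groups alone, without Rescue 1 and without Rescue 2, and it was 3 at a threshold of 0.1. With array weights, which let limma weigh libraries unequally and gave Diabetic 2 a weight of 5.53 against 0.411 for Diabetic 1, it was 54. The median log2 difference was then −0.49 for the members and −0.18 for all genes. The share of all genes called with these weights is not given here, so 54 cannot be read as particular to the members. Control holds 1 of the 3 low libraries and Diabetic holds 2 of them. In the 5 libraries without them the median difference of the members, Diabetic 1 minus Control 1 and 3, was −0.09, beside 0.00 for all genes. Scaling by the median of ratios moved the median of all genes to −0.01 and that of the members to −0.18 in this comparison, and to 0.04 and 0.45 in Rescue minus Diabetic.

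Other splicing genes were read beside the families. Of 59 core spliceosome genes, all tested, 27 rose in Rescue against Diabetic (24.0% of all genes) and 14 against Control (18.0% of all genes), 0 fell in either, and 0 were called between Diabetic and Control. *Snrpg*, a protein of the Sm ring of the spliceosomal particles, was 23.9 and 18.5 RPKM in Rescue, 7.24, 6.51 and 7.60 RPKM in Diabetic and 8.06, 7.89 and 6.40 RPKM in Control, a log2 difference of 1.45 against Diabetic (SE 0.17, limma adjusted p = 0.00142). *Snrnp25* of the minor spliceosome and *Snrpf*, another Sm protein, rose by 1.40 and 1.11 (limma adjusted p = 0.00149 and 0.00344). Of 52 tested other splicing regulators, of 55 listed, 15 rose and 1 fell against Diabetic, and 6 rose and 3 fell against Control, beside the same shares of all genes. Those that rose included *Celf2* (1.34), *Mbnl1* (1.30) and the muscle SR kinase *Srpk3* (1.56), which is at most 0.366 RPKM in Control. *Srpk3* reached 1 RPKM only in Rescue 1 (5.16), Rescue 2 (2.31) and Diabetic 1 (1.98), so it passed the filter through the Rescue libraries. It lost its call without Rescue 1, Diabetic 2, Diabetic 3 or Control 3. The 2 epithelial regulators were lower: *Esrp1* was 9.49 and 14.6 RPKM in Rescue, 18.4, 18.7 and 19.3 RPKM in Diabetic and 20.3, 21.2 and 22.9 RPKM in Control, and fell in Rescue against both (limma adjusted p = 0.0287 and 0.0105), a call against Diabetic that was lost without Rescue 1, Diabetic 2, Diabetic 3 or Control 3. *Esrp2* was 1.14 and 0.949 RPKM in Rescue, 1.23, 0.900 and 1.15 RPKM in Diabetic and 3.43, 2.78 and 2.04 RPKM in Control, and fell in Rescue against Control and was the only gene of these lists called between Diabetic and Control (log2 difference −0.83, SE 0.17, limma adjusted p = 0.0385). The call against Control in Rescue was lost without Rescue 1 (limma adjusted p = 0.0537), and that in Diabetic without Control 1 (adjusted p = 0.137), Control 3 (0.152), Control 4 (0.0574), Diabetic 1 (0.0672) or Diabetic 2 (0.179). *Khdrbs3* fell in Rescue against Control (−0.74, limma adjusted p = 0.0386), except without Rescue 1 or any 1 Control library. The 3 low libraries were also the 3 lowest for 26 of the 59 core genes and 29 of the 52 regulators, against 18.0% of all genes.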

How the data were processed

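Islet RNA of 8 libraries was compared: 2 Rescue, 3 Diabetic and 3 Control. Per the paper's methods the authors sequenced paired-end libraries, aligned them with STAR to mm10, counted with HTSeq and used edgeR (versions and strand setting not given in the sources used here), and deposited 1 RPKM value per gene and library. The deposited RPKM values are not counts, so no count model was the main test. For all 18126 genes above 0 they could be written as whole reads (tolerance 0.001), which gave the depths and a voom alternative. The sum of reads divided by the relative depth varied from 13757000 to 14614000, so the scaling held a further factor that is not stated.

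Genes of at least 1 RPKM in 2 libraries (12594) were fitted on the log2(RPKM + 1) scale (limma 3.58.1, R 4.3.3). All 8 libraries entered 1 model with a mean for each genotype and a trended variance prior. Tests were 2-sided, and p-values were adjusted by Benjamini-Hochberg over all tested genes within a comparison. SE is limma's standard error, ± an SD of RPKM values, and the added 1 shrinks differences of low genes. The fit was tested on simulated data. Members, lists and named genes were chosen with earlier results of these data known, the nuclear-retained list among them. Named were all CLK, cyclin L, LUC7-like and SR genes, the 5 hnRNP and 5 RBM genes highest in level, in range within a genotype, and highest and lowest in the share between genotypes, and up to 10 called members (5 for other splicing genes) per direction and comparison. Remaining called members were named for completeness. Positions and transcript types are from GENCODE M21 (GRCm38), promoters from RefSeq (GRCm38.p6). Alternatives were pseudocounts (0.1, 0.5), filters, 3 scalings, thresholds (0.1, 0.01), a replicate block, weights, robust priors, a covariate, voom, fits of 2 groups and leaving out each library. Fits of only the libraries above or below the mean of the nuclear-retained list were added after the data were seen.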

Additional observations from a re-analysis of the deposited data

How the results depend on the processing

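The 35 calls of members over the comparisons, each followed through the alternatives, gave 836 pairs of a call and an alternative. The direction changed in 0 of these pairs and the call was lost in 255. Other thresholds, robust priors and fits of 2 groups leave the log2 difference as it was, so no change of direction could arise there. *Rbm38* alone kept its calls in every refit that tested it, which leaves out the filter at a mean RPKM of at least 5. That gene had passed the filter for members through its Rescue libraries. The count for Rescue over Diabetic, 26 higher and 1 lower, was 17 and 2 with median-of-ratios scaling, 18 and 2 with TMM-like scaling, 18 and 4 with quantile normalization, 12 and 0 in a fit of the 2 groups, 38 and 0 with array weights, 17 and 1 with the nuclear-retained list as a covariate, 38 and 2 at a threshold of 0.1, 8 and 0 at 0.01, and 1 and 0 in the 5 libraries above the mean of that list. Leaving out 1 library gave 9 to 43 higher and 0 to 2 lower. For Rescue over Control, 7 and 1, it was 3 and 1 at a mean RPKM of at least 5, 5 and 6 with quantile normalization, 6 and 0 in a fit of the 2 groups, 4 and 0 with array weights, 12 and 2 at 0.1, 2 and 0 at 0.01, 2 and 0 in the 5 libraries, and 2 to 8 higher and 0 to 3 lower when a library was left out. For Diabetic against Control, 0 and 0, the count of lower members was 1 at a mean RPKM of at least 5, 1 with median-of-ratios scaling, 1 in a fit of the 2 groups, 3 at 0.1, 54 with array weights and 0 to 1 when a library was left out. The F-test over genotypes called 20 members, 12 with median-of-ratios scaling, 13 with TMM-like scaling, 56 with array weights, 30 at 0.1, 4 at 0.01, 2 in the 5 libraries and 4 to 34 when a library was left out (4 without Diabetic 2, 7 without Rescue 1, 9 without Diabetic 3, 9 without Control 3, 11 without Control 1, 34 without Diabetic 1). The 35 members wider within a genotype were 45 with median-of-ratios or TMM-like scaling and 20 to 39 when a library was left out. The causes of these shifts were not tested, other than the fewer libraries of some fits. All these counts are of members alone, without the share of all genes in the same refit. They do not show whether the members shifted more than other genes.

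Samples with the same replicate number deviated together in some pairs only. The correlations over genes were 0.082 (Rescue 1 and Diabetic 1), 0.372 (Rescue 1 and Control 1), 0.070 (Rescue 2 and Diabetic 2), 0.327 (Diabetic 1 and Control 1) and −0.263 (Diabetic 3 and Control 3). Diabetic 1 was nearer to Control 3 (0.446) and Diabetic 2 to Control 4 (0.509). The 2 Rescue libraries deviate from their mean in opposite directions by construction, and the 3 low libraries also shape these values. The correlations therefore cannot tell whether samples with the same number shared a litter or a batch. With a replicate block, Rescue over Diabetic had 20 members higher and 0 lower, Rescue over Control 1 and 0, Diabetic over Control 0 and 0, and the F-test called 8.

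With 2 or 3 libraries in a genotype, a library that differs from the rest of its group sets the standard error. For the CLK and cyclin L genes a difference between genotypes was not detectable at the spread of all 8 libraries. Between Rescue and Diabetic, each of them had an adjusted p under 0.05 (limma) in at least 1 fit without a library. Which library that fit left out is not given here. A fit without Diabetic 1 sets Rescue against Diabetic 2 and Diabetic 3 alone, where these genes were low. Without Diabetic 2, Diabetic 3 and Control 4, the median log2 difference Rescue minus Diabetic was 0.23 for the CLK genes and 0.07 for the cyclins L.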
